A study of Mus musculus with 8 samples.

Results

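The genes described here are 9 surface genes that mark mouse monocytes and macrophages: Csf1r, Ccr2, Cx3cr1, Cd68, Ly6c2, Cd14, Clec10a, Adgre1 and Fcgr1. They were chosen by RefSeq symbol, as a list, among 20887 genes with a named probe on an Agilent one-colour array. A named probe was found for 7 of the 9, and Cd68 and Ly6c2 were not analysed here. Csf1r and Cx3cr1 have 3 probes each and Adgre1 has 2, of which the brightest was used. The other 4 genes have 1 probe each.

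RNA came from 2 sorted bone marrow populations of transplanted mice. MEP are megakaryocyte/erythroid progenitors, and LSK are lineage-negative, c-Kit-positive, Sca-1-positive cells, the fraction that holds the stem and multipotent progenitor cells. Each population was profiled in 4 genotypes. The double mutant marrow was JAK2V617F;Ezh2flox/flox;Cre-ERT2, the JAK2V617F marrow was JAK2V617F;Cre-ERT2, the Ezh2-deleted marrow was Ezh2flox/flox;Cre-ERT2, and the WT marrow was Cre-ERT2 alone, so every group carried the Cre-ERT2 recombinase. JAK2V617F is the activating kinase mutation found in myeloproliferative neoplasms, and Ezh2 is the catalytic subunit of Polycomb repressive complex 2, which methylates histone H3 on lysine 27. Donor cells had been placed in irradiated CD45.1+ wild-type hosts, Ezh2 was deleted 4 weeks after transplantation, and cells were sorted at 2 months, with 20 ng of RNA per array. There were 8 arrays in all, 1 for each cell type and genotype, on 1 slide with a row per cell type and a column per genotype. Position on the slide and group therefore cannot be told apart. With 1 array per group, the spread used in every test is the disagreement between matched pairs of arrays, and the number of arrays limits the precision. The labels give no number of animals per array.

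Monocytes arise from myeloid progenitors under the colony-stimulating factor 1 receptor, the product of Csf1r, which binds CSF1 and interleukin 34. The chemokine receptors CCR2 and CX3CR1 are used to separate classical from patrolling monocytes, and CD14 hands endotoxin to Toll-like receptor 4. Clec10a encodes a galactose-binding lectin, Adgre1 the adhesion receptor by which mouse macrophages are usually recognised, and Fcgr1 the high-affinity Fc receptor for immunoglobulin G. Csf1r is transcribed at a low level in stem and multipotent progenitor cells before monocytes are formed, and the transcription factor PU.1 is required for the lineage.

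The proximal promoters of 3 measured genes are shown because these genes had different patterns over the arrays. Cx3cr1 was above background on all 8 arrays, Ccr2 was above background in LSK alone, and Fcgr1 was above background only in LSK with JAK2V617F. Each window is the 250 bases before the RefSeq start site on GRCm38.p6, read 5′ to 3′ on the gene's strand, and capitals mark the letters GAGGAA, the core that PU.1 recognises, on either strand. The windows are chr3:96293970-96294219 (minus strand) for Fcgr1, chr9:124101933-124102182 (plus strand) for Ccr2 and chr9:120068297-120068546 (minus strand) for Cx3cr1.
Fcgr1: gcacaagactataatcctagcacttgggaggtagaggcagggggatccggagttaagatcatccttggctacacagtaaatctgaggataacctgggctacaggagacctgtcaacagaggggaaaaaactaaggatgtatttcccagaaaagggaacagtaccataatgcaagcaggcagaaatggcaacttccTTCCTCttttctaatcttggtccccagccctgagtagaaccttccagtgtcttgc
Ccr2: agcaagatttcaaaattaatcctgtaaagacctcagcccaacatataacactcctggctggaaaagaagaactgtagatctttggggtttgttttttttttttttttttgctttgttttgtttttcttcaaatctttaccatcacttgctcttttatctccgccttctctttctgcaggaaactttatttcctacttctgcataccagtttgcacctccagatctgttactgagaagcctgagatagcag
Cx3cr1: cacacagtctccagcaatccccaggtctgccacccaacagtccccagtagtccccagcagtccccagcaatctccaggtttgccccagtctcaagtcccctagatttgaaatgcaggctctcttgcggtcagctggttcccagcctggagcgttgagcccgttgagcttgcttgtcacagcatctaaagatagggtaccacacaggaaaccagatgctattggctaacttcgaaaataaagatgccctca

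The Fcgr1 window held 1 match, on the opposite strand, beginning 55 bases before the start site. The windows of Ccr2 and Cx3cr1 held 0 matches. GAGGAA was present in 23.3% of all 32851 RefSeq windows of this length. The STAT pattern TTCNNNGAA was present in 7.02% of them, with 1 match in the Fcgr1 window and 0 in the other two. These matches describe the letters only.

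Levels are log2 processed signals minus the array's 75th percentile, so 0 is the brightness of a probe at that percentile. The scanner software called between 39.79% and 48.82% of each array's probes well above background. The lowest such level, which bounds any dimmer probe, lay between -3.02 and -2.66 on MEP arrays and between -4.00 and -3.35 on LSK arrays. The sorted populations carried the markers of their labels, since 8 of 8 MEP markers were higher in MEP than in LSK and 6 of 8 LSK markers were lower (limma, adjusted p under 0.05). The Ezh2 probe was not significantly lower with the deletion (log2 fold change -0.29, SE 0.18, limma adjusted p = 0.399). Whether that probe lies in the deleted part was not tested.

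**Figure D1:**
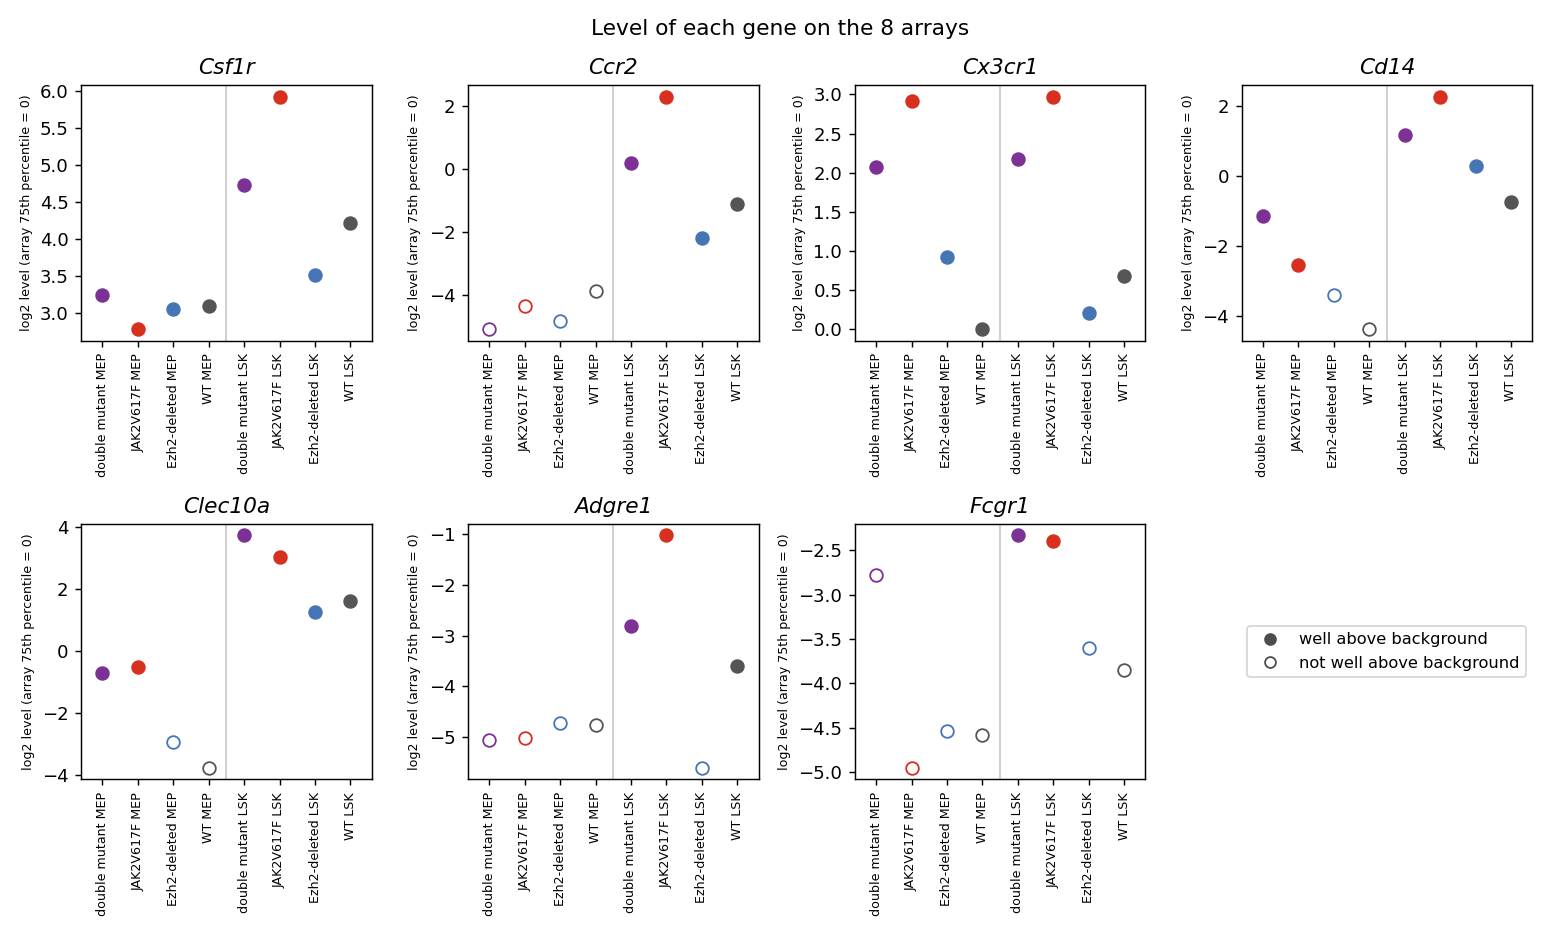
Log2 level of each measured gene (vertical axis, array 75th percentile at 0) on the 8 arrays, MEP left of LSK and each point 1 array. Filled points are well above background and open points are not. Cx3cr1 is filled on all 8 arrays, and Ccr2 is filled on the 4 LSK arrays alone.

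MEP and LSK were compared first, to see in which progenitor population the surface genes are transcribed. Clec10a, Cd14, Ccr2, Csf1r and Fcgr1 were lower in MEP than in LSK, Adgre1 did not pass the test, and no difference was detected for Cx3cr1. The 5 genes called lower are 5 of the 7 tested, and 0 were called higher. Of all 13178 genes tested, 20.1% were called lower in MEP at a limma adjusted p under 0.05 and 40% were called either way, so a lower level in MEP is common on these arrays. Where MEP and LSK arrays are said not to overlap, this only describes the levels. The share of all genes that separate so is not given, so such a gene cannot be called unusual. Fcgr1, Ccr2 and Adgre1 entered the test only through their LSK arrays. Of the 4 genes that pass the filter without those arrays, 3 were called lower.

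Read with its brightest probe, Csf1r, the CSF1 receptor, was well above background on all 8 arrays. In MEP its level was 3.25 in the double mutant, 2.79 in JAK2V617F, 3.06 in Ezh2-deleted and 3.10 in WT cells. In LSK it was 4.73 in the double mutant, 5.92 in JAK2V617F, 3.51 in Ezh2-deleted and 4.21 in WT cells. Every MEP array was below every LSK array, with a log2 fold change of -1.54 (SE 0.38, limma adjusted p = 0.0147, n = 4 arrays each). The size depends on the probe, since the other Csf1r probes gave -3.43 and -0.19. Detection in MEP does too: the probe that gave -3.43 was not well above background on any MEP array (-4.45 to -3.45). With the brightest probe, neighbouring MEP levels differed by less than the residual SD of 0.54, and so did the lowest LSK level and the highest MEP level. The JAK2V617F LSK array stood 1.19 above the next one.

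Ccr2, the receptor for the chemokine CCL2, was not well above background on any of the 4 MEP arrays, with measured levels of -5.06 in the double mutant, -4.34 in JAK2V617F, -4.80 in Ezh2-deleted and -3.86 in WT MEP. In LSK its level was 0.19 in the double mutant, 2.29 in JAK2V617F, -2.17 in Ezh2-deleted and -1.10 in WT cells. The groups did not overlap. Against the lowest level that counts as above background on each MEP array, Ccr2 was at least 6.24-fold lower in MEP (limma adjusted p = 0.00134). A fold written as at least is a bound of this kind: the bright group's mean against the higher of the dim probe and that array's lowest level above background. Log2 fold changes without those words are fitted to the levels as measured, dim probes included. A bound, or the value with dim probes at the limit, is given beside some of those that rest on them.

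Clec10a, the galactose-binding lectin gene, was lowest in MEP without JAK2V617F. Its MEP levels were -0.68 in the double mutant and -0.50 in JAK2V617F, and it was not well above background in Ezh2-deleted (-2.93) or WT (-3.76) MEP. Its LSK levels were 3.75 in the double mutant, 3.06 in JAK2V617F, 1.28 in Ezh2-deleted and 1.61 in WT cells. It was at least 16.8-fold lower in MEP than in LSK (limma adjusted p = 2.1e-05), and the 2 groups of 4 arrays did not overlap.

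Cd14, the endotoxin co-receptor gene, showed a similar split. Its MEP levels were -1.15 in the double mutant and -2.56 in JAK2V617F, and it was not well above background in Ezh2-deleted (-3.40) or WT (-4.37) MEP. Its LSK levels were 1.16 in the double mutant, 2.26 in JAK2V617F, 0.28 in Ezh2-deleted and -0.74 in WT cells. Cd14 was at least 8.10-fold lower in MEP (limma adjusted p = 2.5e-04). The lowest LSK array and the highest MEP array were 0.42 apart, within the residual SD of 0.54.

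Cx3cr1, the fractalkine receptor gene, had the smallest difference between the populations among the 7 genes. In MEP it was 2.07 in the double mutant, 2.92 in JAK2V617F, 0.93 in Ezh2-deleted and 0.00 in WT cells. In LSK it was 2.17 in the double mutant, 2.97 in JAK2V617F, 0.20 in Ezh2-deleted and 0.69 in WT cells. The arrays fall by JAK2 genotype and not by cell type. MEP over LSK gave a log2 fold change of -0.03 (SE 0.29, limma adjusted p = 0.945), and the other probes gave -0.20 and -0.06. The 2 JAK2V617F arrays differed by 0.05 and the 2 double mutant arrays by 0.10, both within the residual SD of 0.41.

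Adgre1 and Fcgr1 were near the limit of detection. Adgre1, the macrophage adhesion receptor gene, was above background on 3 arrays, at -2.81 in double mutant, -1.02 in JAK2V617F and -3.61 in WT LSK. It was not well above background in Ezh2-deleted LSK (-5.61) or on any MEP array, where it measured between -5.06 and -4.73. Because the WT LSK level lies under the detection limit of every MEP array, the MEP arrays could not have shown it, and MEP over LSK was -1.63 (SE 0.65, limma adjusted p = 0.079). The other Adgre1 probe gave -0.66. Fcgr1, the high-affinity Fc receptor gene, was above background only in double mutant LSK at -2.33 and JAK2V617F LSK at -2.40. On the other 6 arrays it measured between -4.95 and -2.77. Its MEP over LSK value of -1.17 passed the test (SE 0.37, limma adjusted p = 0.0381) but no fold can be given. With dim values raised to each array's limit the value was 0.27, with the normexp background correction it was -0.16 (adjusted p = 0.387), and the call was also lost without WT LSK (0.0912), JAK2V617F LSK (0.0886), double mutant LSK (0.0647) or Ezh2-deleted MEP (0.0928).

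**Figure D2:**
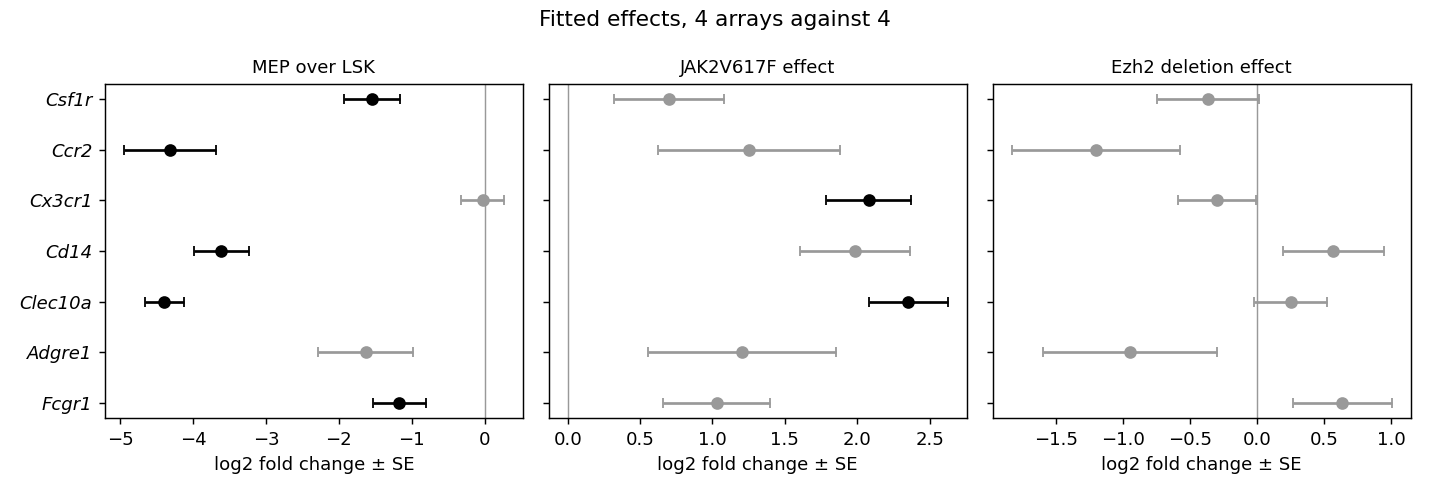
Fitted log2 fold change of each gene (horizontal axis, bars are the SE from limma, 4 arrays against 4) for MEP over LSK, JAK2V617F over JAK2 wild type, and Ezh2-deleted over Ezh2 intact. Black marks an adjusted p under 0.05: 5 genes are black in the first panel, Clec10a and Cx3cr1 in the second, and 0 in the third.

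The effect of JAK2V617F was then estimated over both cell types and both Ezh2 states. Clec10a and Cx3cr1 rose with JAK2V617F, and the other 5 genes did not pass the test. Among all genes tested, 0.22% were called higher and 0.326% either way. Without their JAK2V617F arrays, Adgre1 and Fcgr1 would not have entered the test. The filter thus favoured a higher value, and their direction is not counted. Adgre1 was also above background on the WT LSK array. The other 5 genes had a median difference of 1.99 on the log2 scale, against 0.01 over all genes, and 2 of these 5 were called. With dim values at each array's limit their median was 1.39, the value of Cd14. In bulk RNA of this kind, more cells of a type and more RNA per cell cannot be told apart.

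Clec10a was higher in 4 of 4 matched pairs, which differ in JAK2 and share cell type and Ezh2 state. The differences ranged from 1.44 to 3.27, and the fold was at least 4.09 (log2 fold change 2.35, SE 0.27, limma adjusted p = 0.0191). Over both cell types the JAK2V617F and JAK2 wild-type arrays overlapped, because Clec10a also differs between LSK and MEP. Cx3cr1 was higher in 4 of 4 pairs, by 1.15 to 2.91, and the 4 JAK2V617F arrays lay above the 4 JAK2 wild-type arrays without overlap. Its fold was 4.22 (log2 fold change 2.08, SE 0.29, limma adjusted p = 0.0419), and its other probes gave 2.07 and 2.18. Of all genes, 7.28% were higher in all 4 pairs, and any gene that separates upward without overlap is among them.

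Both calls sit close to the threshold. Clec10a missed it without Ezh2-deleted LSK (adjusted p = 0.0677), Ezh2-deleted MEP (0.0570), JAK2V617F MEP (0.0891) or double mutant MEP (0.160). Cx3cr1 passed with Ezh2-deleted MEP left out (0.0320) and missed without each of the other 7 arrays (0.0519 to 0.181). With dim values of all arrays raised to 1 common floor, a setting added after the data were seen, the adjusted p was 0.143 for Clec10a and 0.246 for Cx3cr1.

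Among the genes that did not pass over all 8 arrays, Cd14 was higher in 4 of 4 pairs, by 0.88 to 3.00, with a log2 fold change of 1.99 (SE 0.38, limma adjusted p = 0.0971). Cd14 was dim on both JAK2 wild-type MEP arrays, so the fold is only bounded, at least 2.62. Of all genes, 7.28% were higher in all 4 pairs. Ccr2 had a value of 1.26 (adjusted p = 0.528), Adgre1 1.20 (0.563), Fcgr1 1.03 (0.379) and Csf1r 0.70 (0.563), each in limma's fit. With dim values at each array's limit, Ccr2 was 1.30, Adgre1 0.79 and Fcgr1 0.61. For Ccr2, Adgre1, Fcgr1 and Csf1r the pairs did not all point one way. The MEP pairs of Ccr2 and Adgre1 were below background on both sides.

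**Figure D3:**
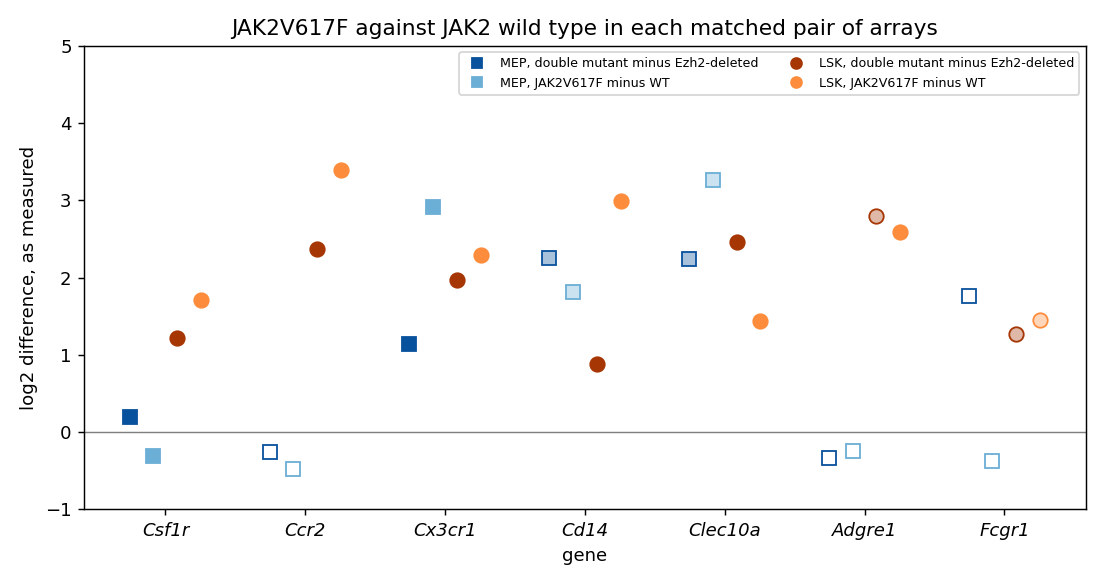
Log2 difference, as measured, between JAK2V617F and JAK2 wild-type arrays of the same cell type and Ezh2 state (vertical axis), 4 pairs per gene, MEP squares left of LSK circles. Full colour means both arrays were well above background, pale colour 1 of them and open symbols neither. The LSK circles of all 7 genes are above 0, while both MEP squares are above 0 for Cx3cr1, Cd14 and Clec10a alone.

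Within LSK, all 7 measured genes were higher in both JAK2V617F arrays than in both JAK2 wild-type arrays. Of all genes tested, 31.5% separated in this way in this direction and 44.1% were higher in both pairs. Adgre1 was called higher, at least 3.63-fold (log2 fold change 2.70, SE 0.21, limma adjusted p = 0.0274), where 0.0759% of all genes were called higher. Without the JAK2V617F LSK arrays, Adgre1 and Fcgr1 would not have entered the test, so the filter favoured a higher value for both. Of the 5 genes that pass without those arrays, 5 were higher in both pairs and 0 were called.

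The Adgre1 call did not hold under normexp background correction (adjusted p = 0.0504), quantile normalization (0.0524), no filter on dim probes (0.132), the mean of both probes (0.0726) or the common floor (0.424). It was also lost without any 1 of the 4 MEP arrays (0.131 each), which leave the LSK values as they are and reduce the degrees of freedom. The other Adgre1 probe gave smaller differences within LSK. Its LSK levels were -3.58 in the double mutant (dim), -2.06 in JAK2V617F, -3.95 in Ezh2-deleted (dim) and -3.68 in WT cells. The remaining differences within LSK were 2.88 for Ccr2 (SE 0.30, limma adjusted p = 0.0545), 2.13 for Cx3cr1 (SE 0.43, 0.142), 1.95 for Clec10a (SE 0.37, 0.126) and 1.94 for Cd14 (SE 0.50, 0.193). Csf1r differed by 1.46 (SE 0.25, 0.106) and Fcgr1 by 1.36 (SE 0.50, 0.257). All 7 had an unadjusted p under 0.05, as did 17.6% of all genes.

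Within MEP, 0 of the 7 genes passed the test, where 0.152% of all genes were called either way, and 3 had an unadjusted p under 0.05, as did 7.8% of all genes. Clec10a differed by 2.76 (SE 0.37, limma adjusted p = 0.0839), a fold of at least 4.31. Cx3cr1 differed by 2.03 (SE 0.43, limma adjusted p = 0.208). Cd14 differed by 2.03 (SE 0.50, limma adjusted p = 0.276), a fold of at least 1.80. These 3 genes were higher in both MEP pairs. Csf1r was not, and Ccr2, Adgre1 and Fcgr1 were below background on all 4 MEP arrays.

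The difference between the JAK2V617F effects of the 2 cell types was tested directly. It was -3.25 for Ccr2 (SE 0.43, limma adjusted p = 0.189), -2.99 for Adgre1 (SE 0.29, 0.127) and -1.52 for Csf1r (SE 0.35, 0.326), as MEP minus LSK. The values of Ccr2 and Adgre1 rest on MEP arrays where both were below background. The other Adgre1 probe, also dim on every MEP array, was higher there with JAK2V617F. Its MEP levels were -3.92 in the double mutant, -2.96 in JAK2V617F, -4.72 in Ezh2-deleted and -4.30 in WT cells. In the test of the difference 0 of the 13178 genes passed, while 1511, or 11.5%, had an unadjusted p under 0.05. An unequal effect of JAK2V617F in LSK and MEP was therefore not shown for any of the 7 genes.

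Single arrays give the pattern by genotype, with no test. In LSK, 7 of 7 genes were at least 2-fold higher in JAK2V617F than in WT cells, where 3.6% of all genes were. Adgre1 and Fcgr1 are among the 7, and passed the filter only through the 2 LSK arrays that carry JAK2V617F, of which the double mutant array enters the next 3 counts. In double mutant against WT LSK, 5 of 7 genes were at least 2-fold higher (5.52% of all genes), and in double mutant against Ezh2-deleted LSK 6 of 7 were (3.28%). In double mutant against JAK2V617F LSK, 4 of 7 genes were at least 2-fold lower (1.5%) and 0 were higher. In Ezh2-deleted against WT LSK, 1 gene was at least 2-fold higher (3.82%) and 1 lower (1.61%). In MEP, 2 of 7 genes were at least 2-fold higher in JAK2V617F than in WT cells (2.37%), and 3 of 7 in double mutant against WT cells (5.05%). In double mutant against Ezh2-deleted MEP, 3 of 7 were at least 2-fold higher (2.54%). In double mutant against JAK2V617F MEP, 1 gene was at least 2-fold higher (4.55%) and 0 were lower, unlike in LSK, and this difference between the cell types was not tested. In Ezh2-deleted against WT MEP, 0 of 7 moved by that much in either direction (4.25%). Dim values stood at each array's limit in these counts. The comparisons share arrays and are not independent of each other.

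The effect of Ezh2 deletion was estimated over both cell types and both JAK2 states. None of the 7 genes passed the test (limma, lowest adjusted p = 0.328, 0 with an unadjusted p under 0.05), where 0.706% of all genes were called and 18.1% had an unadjusted p under 0.05. The median difference was -0.30, against -0.11 over all genes. Xist was higher with Ezh2 deletion (at least 37.2-fold) and the Y-linked genes Eif2s3y (at least 85.03-fold) and Ddx3y (at least 26.5-fold) were lower, so sex of the marrow and Ezh2 state cannot be told apart. The fitted differences were -1.21 for Ccr2 (SE 0.63), -0.95 for Adgre1 (SE 0.65), -0.37 for Csf1r (SE 0.38) and -0.30 for Cx3cr1 (SE 0.29). They were 0.57 for Cd14 (SE 0.38), 0.63 for Fcgr1 (SE 0.37) and 0.25 for Clec10a (SE 0.27). With dim values at each array's limit, Ccr2 was -0.80, Adgre1 -0.54, Cd14 0.35, Fcgr1 0.13 and Clec10a 0.06.

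Within LSK, Adgre1, Ccr2, Csf1r and Cx3cr1 were lower with Ezh2 deletion in both pairs, as were 44.4% of all genes. The differences were -1.90 for Adgre1 (SE 0.21, limma adjusted p = 0.0631, at least 2.09-fold lower because Ezh2-deleted LSK was dim), -1.58 for Ccr2 (SE 0.30, 0.155), -0.95 for Csf1r (SE 0.25, 0.289) and -0.64 for Cx3cr1 (SE 0.43, 0.714). None passed the test, where 0.0986% of all genes were called, and 3 had an unadjusted p under 0.05, as did 9.24% of all genes. Within MEP, 0 of the 7 genes passed the same test and 0.493% of all genes did. There 1 gene had an unadjusted p under 0.05, as did 12.9% of all genes, and it was Ccr2, below background on all 4 MEP arrays. As MEP minus LSK, the Ezh2 effects differed by 1.89 for Adgre1 (SE 0.29, limma adjusted p = 0.283, below background in MEP) and 1.16 for Csf1r (SE 0.35, 0.749), where 0.00759% of all genes passed. The interaction of JAK2V617F with Ezh2 deletion was called for 0 of 7 members and for 0 of all genes by limma, with 0 of 7 and 445 genes (3.38%) at an unadjusted p under 0.05.

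The partners of these receptors were followed next. Of 7 genes for ligands of CSF1R, CCR2 and CX3CR1, 4 were tested. Csf1, the CSF1R ligand, was lower in MEP (log2 fold change -2.30, SE 0.31, limma adjusted p = 8.4e-04, at least 4.02-fold), and so was Ccl2, the CCR2 ligand (-2.98, SE 0.34, 3.7e-04). Il34 and Cx3cl1, the other CSF1R ligand and the ligand of CX3CR1, did not pass. Csf1 entered the test only through its LSK arrays, and 20.1% of all genes were called lower in MEP. With JAK2V617F, 0 of the 4 were called, and Ccl2 measured 1.21 (SE 0.34, limma adjusted p = 0.271). In LSK the Ccl2 level was 1.87 in the double mutant, 2.81 in JAK2V617F, 1.11 in Ezh2-deleted and 0.21 in WT cells. Both LSK arrays with JAK2V617F thus lay above both without it, as for Ccr2 and for 31.5% of all genes tested. A link between Ccl2 and Ccr2 was not tested.

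Partners of CD14 and FCGR1 were also lower in MEP. Of 6 tested genes for endotoxin and Toll-like receptor partners, 4 were called lower, among them Tlr2 (log2 fold change -2.77). Of all genes, 20.1% were called lower in MEP. Tlr4 was also called, but it was not well above background on any MEP array and was at least 1.61-fold lower (limma adjusted p = 6.1e-05). All 7 tested Fc receptor and signalling chain genes were called lower in MEP, with a median of -2.71 (-2.68 with dim values at each array's limit), against 0.12 over all genes. Of these, Fcgr4 was below background on all 4 MEP arrays and no fold can be given for it. Fcgr3, Fcgr4 and Tlr4 entered the test only through their LSK arrays, so the filter favoured a lower value in MEP for them. The 7 Fc receptor and chain genes include Tyrobp, an adaptor chain of myeloid receptors (-5.13). Also among them is Fcgr3, a low-affinity Fc receptor (at least 4.08-fold lower, and above background on 1 MEP array). With JAK2V617F, 0 of the 7 passed the test and the median was 1.21, or 0.78 with dim values at the limit. Tlr2 measured 1.38 (SE 0.25, limma adjusted p = 0.0876).

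Relatives of Clec10a and of Ly6c2 were read next. Of 5 tested C-type lectin genes, Clec4e was lower in MEP by a factor of at least 32.8, and Clec4d (log2 fold change 1.79) and Mgl2 (0.78), the close relative of Clec10a, were higher. With JAK2V617F, 0 of the 5 were called. In the Ly6 family, 4 of 6 tested genes were lower in MEP, where 20.1% of all genes were called lower. Of these 4, Ly6a entered the test only through its LSK arrays. Ly6c1, the near-identical neighbour of Ly6c2, measured -5.22 (SE 0.55, limma adjusted p = 2.5e-04), and whether its probe also reads Ly6c2 was not tested. With Ezh2 deletion Ly6d, a lymphoid progenitor marker, was called higher, at least 5.67-fold.

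Most genes of the wider monocyte list were lower in MEP, and few were called with JAK2V617F. Of 23 tested monocyte genes, 18 were called lower in MEP, where 20.1% of all genes were called lower. Called higher was 1, Cd36, a scavenger receptor also made by erythroid cells (at least 3.58-fold). Ms4a6b, Ccl6 and Fn1, among those called lower, entered the test only through their LSK arrays, and Cd36 only through its MEP arrays. All 9 tested transcription factors of the lineage were called lower, among them Irf8 (log2 fold change -4.97) and Spi1, which encodes PU.1. Spi1 was not well above background on any MEP array and was at least 5.21-fold lower (limma adjusted p = 1.4e-04). Maf was not well above background on any MEP array either. No fold can be given for Maf, which measured 0.11 with dim values at the limit. Spi1, Maf and Gfi1 entered the test only through their LSK arrays. With JAK2V617F, 1 of the 23 monocyte genes was called, Ifitm6 (log2 fold change 2.39, SE 0.31, limma adjusted p = 0.0294, at least 4.39-fold), and 0 of the 9 factors. Among all genes, 0.22% were called higher. The medians of the monocyte and factor lists were 0.42 and 0.19, or 0.42 and 0.08 with dim values at the limit.

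Genes of other cell types moved with JAK2V617F beside the surface genes. Of 11 tested neutrophil genes, 5 were called higher: S100a8 (log2 fold change 2.69), S100a9 (2.79), Camp (2.86), Ngp (2.83, at least 6.33-fold) and Lcn2 (2.46), all granule or calprotectin genes of maturing neutrophils. Of all genes, 0.22% were called higher with JAK2V617F and 0.326% either way. The median of the neutrophil list was 2.41, also with dim values at the limit. Averaged over the 14 genes with a probe, its MEP level was 1.89 in the double mutant, 1.39 in JAK2V617F, 0.23 in Ezh2-deleted and -0.35 in WT cells. Its LSK level was 1.92 in the double mutant, 2.68 in JAK2V617F, 0.59 in Ezh2-deleted and 0.15 in WT cells. Of 6 tested mast cell and basophil genes, 1 was called higher, Fcer1a (2.26). Of 5 tested T and NK cell genes, 0 were called with JAK2V617F.

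Some B lineage genes were called with each mutation. Of 7 tested, 1 was called lower with JAK2V617F, Blnk, an adaptor of B cell receptor signalling (log2 fold change -2.21, SE 0.25, limma adjusted p = 0.0188), and the list's median was -1.71, or -1.38 with dim values at the limit. With Ezh2 deletion 2 were called higher, Blnk (2.76, SE 0.25, limma adjusted p = 0.00648) and Vpreb3, a gene of B cell precursors (at least 40.4-fold, limma adjusted p = 0.0142), with a median of 3.28, or 2.54 at the limit. Averaged over the 9 genes with a probe, the MEP level was -1.25 in the double mutant, -2.11 in JAK2V617F, 1.02 in Ezh2-deleted and -1.71 in WT cells. The LSK level was -0.95 in the double mutant, -1.81 in JAK2V617F, 1.19 in Ezh2-deleted and -2.08 in WT cells, so the Ezh2-deleted array was the highest in both populations. Among T and NK cell genes, 1 of 5 was called higher with Ezh2 deletion, Gzma, a granzyme gene (at least 2.14-fold). The part of other cells in the JAK2V617F and Ezh2 values of the surface genes was not tested.

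Of 9 tested genes of mature macrophages, 0 were called with JAK2V617F, with a median of 0.13, or 0.0042 with dim values at the limit. Of these 9, 7 had a positive fitted value and 2 a negative one. The highest was 1.25 for Vcam1 (SE 0.42), or 0.19 with dim values at the limit. Hmox1 and Cd4 were well above background on all 8 arrays. C1qb, Vcam1, Axl, Spic and Trem2 were so on every LSK array, and Slc40a1 on every MEP array. Cd163, Siglec1, Mertk, Timd4 and Msr1 were not well above background on any of the 8 arrays. C1qa, C1qc and Cd5l were above background on the WT LSK array alone, where C1qa, a complement gene of tissue macrophages, measured -2.85. Of 9 tested dendritic cell genes, 0 were called with JAK2V617F, and the median was 0.08.

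**Figure D4:**
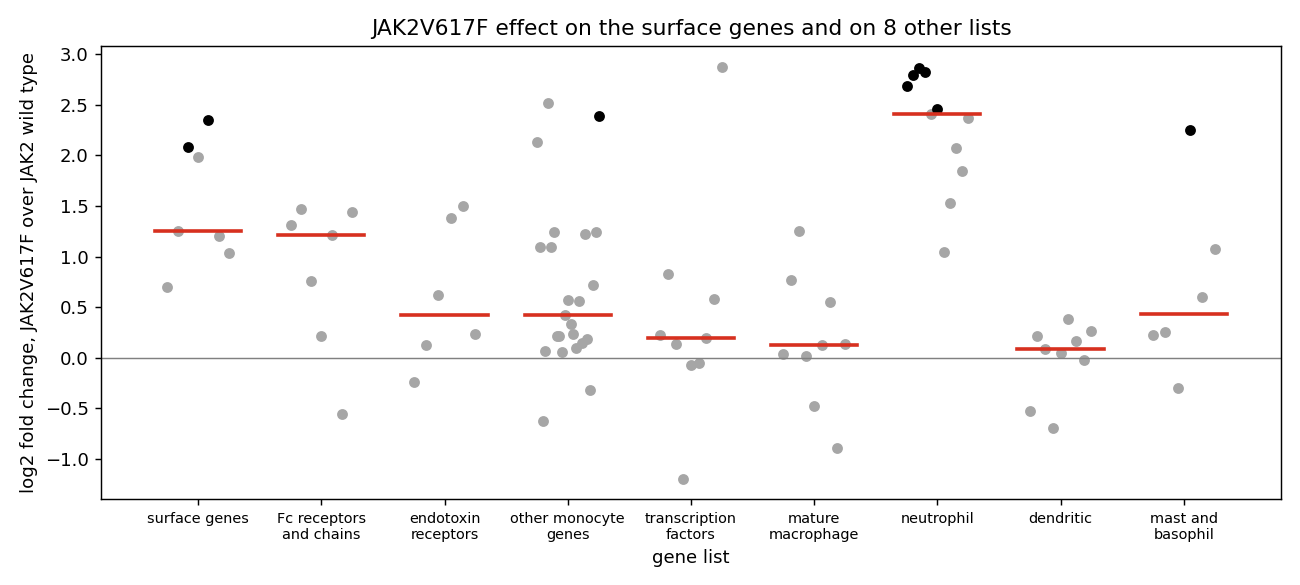
Log2 fold change of JAK2V617F over JAK2 wild type (vertical axis) for the tested genes of 9 lists, 1 point per gene, with the list's median as a red line. Black points have an adjusted p under 0.05: 2 of 7 surface genes, 5 of 11 neutrophil genes and 1 of 23 other monocyte genes are black, and 0 of 9 mature macrophage genes.

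The surface genes differed in how closely they followed each other over the arrays. The correlation over 8 arrays, which share RNA and slide, was 0.989 between Csf1r and Ccr2 and 0.916 between Cd14 and Clec10a. Dim values were raised to each array's limit for all correlations, so the MEP values of Ccr2 are those limits. For Cx3cr1 it was between 0.361 with Cd14 and 0.596 with Adgre1.

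Among 12230 genes above background on at least 4 arrays, the closest to Csf1r were Mefv (r = 0.993), Nrg2 (0.991) and Mrgpra2a (0.987). Nrg2 and Mrgpra2a were not well above background on any MEP array, and Mefv was so in double mutant MEP alone. Most of their MEP values thus stood at or near the limits, so these correlations rest partly on the limits too. The closest to Ccr2 were Cxcr2 (0.996), which encodes a neutrophil chemokine receptor, Trem3 (0.993) and Mrgpra2a (0.991). Like Ccr2, its 3 closest genes were not well above background on any MEP array. Their MEP values stood at or near the same limits, so part of the correlation with Ccr2 is set by the limits. Cd14 was closest to Tlr2 (0.977), Lst1 (0.973) and Prss16 (0.973), and Clec10a to Casp1 (0.987), Snx20 (0.983) and Ccrl2 (0.982). Genes close to Cx3cr1 were Notum (0.963) and Emp3 (0.960), and their ranges were small. Emp3 lay between 5.02 and 5.68 on the 8 arrays, while Cx3cr1 lay between 0.00 and 2.97.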

How the data were processed

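RNA of 8 sorted samples was hybridised to Agilent one-colour arrays. The deposited intensity values were made by the authors' scanner software (Feature Extraction 10.7.1.1, per the file headers), which subtracted background and flagged dim spots. The deposited series table holds linear values, treated as a ratio to each array's 75th percentile, because on the log2 scale they matched the scanner values with a median difference of 0.002 to 0.006. Levels were log2 processed signals minus each array's 75th percentile. Of 55681 probes, 27509 matched a RefSeq gene by accession, and the brightest probe stood for a gene. Genes above background on at least 2 arrays (13178) entered linear models (R 4.3.3, package limma 3.58.1) with terms for cell type, JAK2 and Ezh2, effects nested in cell type, or a JAK2 by Ezh2 interaction. Benjamini-Hochberg adjusted p-values cover all genes tested, and the threshold was 0.05. The fit was tested on simulated data. All measured members are named, other listed genes by call or role, and like genes as the 3 with the highest Pearson correlation, of which 1 is not reported here. Members and lists were chosen with earlier results of these data known. Alternatives were background correction, normalization, the series table, filters, probe choice, floors for dim values and leaving out each array.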

Additional observations from a re-analysis of the deposited data

How the results depend on the processing

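No paired analysis was possible because each group has 1 array and all carry the same replicate number, so that a block by that number has 1 level. The matched pairs above join arrays by cell type and genotype, through the terms of the fit. The settings below changed how many genes passed, and the cause was not tested except where the construction shows it. Percentages are the share of all genes tested with an adjusted p under 0.05 in limma.

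With normexp background correction, JAK2V617F was called for 0.728% of genes over all arrays, 1.61% within LSK (4 of the 7 surface genes) and 0.387% within MEP, Ezh2 deletion for 0.417% within LSK and 0% as MEP minus LSK, and the interaction for 0.0986%. With quantile normalization, JAK2V617F was called for 0.205% (1 surface gene) and 0.0455% within LSK (0 surface genes), and Ezh2 deletion for 0.288%, 0.0152% within LSK and 0.0455% as MEP minus LSK. The authors' series table gave 0.152% for Ezh2 deletion within LSK. The median of all genes for MEP over LSK was 0.12 and became 0.01 after quantile normalization, and the 5 called surface genes stayed lower.

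Among the 10467 genes above background on all 8 arrays, which include 2 of the surface genes, Csf1r and Cx3cr1, JAK2V617F was called for 1.39% (1 surface gene), 1.78% within LSK (2), 0.908% within MEP (1) and 0.239% as MEP minus LSK. Ezh2 deletion was called there for 1.38%, 0.401% within LSK and 0% as MEP minus LSK, the interaction for 0.086%, and MEP over LSK for 1 surface gene. With no filter, JAK2V617F was called for 0.0862% (1 surface gene), 0% within LSK (0) and 0% within MEP, and Ezh2 deletion for 0.249%, 0.00958% within LSK, 0.00958% within MEP and 0% as MEP minus LSK. The mean of all probes of a gene left 1 surface gene called with JAK2V617F.

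With dim values raised to each array's floor, JAK2V617F was called for 0.668%, 1.92% within LSK (6 surface genes), 0.668% within MEP (1) and 0.00759% as MEP minus LSK. Ezh2 deletion was called for 0.918% within LSK and 0% as MEP minus LSK, and the interaction for 0.0607%. MEP over LSK then turned to 0.0083 for Adgre1 and 0.27 for Fcgr1, because the floors of the MEP arrays are the higher ones. With 1 common floor, added after the data were seen, MEP over LSK was called for 3 surface genes, JAK2V617F for 0% (0 surface genes), 0% within LSK (0) and 0% within MEP, and Ezh2 deletion for 0.0759%, 0% within LSK, 0% within MEP and 0% as MEP minus LSK.

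Leaving out 1 array at a time gave 27.1% to 43% and 4 to 6 surface genes for MEP over LSK. JAK2V617F gave 0% to 0.402% (0 to 2 surface genes), 0% to 2.09% within LSK (0 to 4), 0% to 2.52% within MEP (0 to 3) and 0% to 1.05% as MEP minus LSK (0 to 2). Ezh2 deletion gave 0.0911% to 0.812%, 0% to 1.97% within LSK, 0% to 2.89% within MEP and 0% to 0.971% as MEP minus LSK, and the interaction 0% to 0.159%. An array left out within a cell type leaves a lone array, which is assumed to vary like the others. Leaving out 1 array turned the sign of MEP over LSK for Cx3cr1 (-0.35 to 0.27) and of Ezh2 deletion for Csf1r (-0.76 to 0.029), neither of which was called. Signal near background limits Adgre1 and Fcgr1.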
